A study of Mus musculus with 16 samples.

Results

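Core fatty acid synthesis is described here through 8 genes, the 6 enzymes Acly, Acss2, Acaca, Acacb, Fasn and Me1 and the regulators Mlxipl (ChREBP) and Thrsp. They were taken by their symbols from a table of 40840 genes, and all 8 were among the 20444 genes tested. The RNA came from p53-/-; Myc hepatoblasts, a line of mouse liver progenitor cells that lack the tumor suppressor p53, overexpress the oncogene Myc and serve as an in vitro model of hepatocellular carcinoma (HCC). Cells were exposed to sorafenib, a multikinase inhibitor used against HCC, at 8.5 µM, or to DMSO as the vehicle control, and were collected at 48 hours or 7 days, giving 4 groups of 4 libraries. Every group carries the same p53 loss and Myc overexpression, so neither was varied, and all libraries come from 1 cell line. No label says that replicates are separate cultures, so p-values measure the spread between these samples, which may be technical.

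Fatty acids are built in the cytosol from acetyl-CoA. Acly makes acetyl-CoA from citrate that has left the mitochondrion, and Acss2 makes it from acetate. Acaca and Acacb, the acetyl-CoA carboxylases, turn it into malonyl-CoA, and Fasn joins malonyl units into palmitate at the cost of NADPH, part of which comes from the cytosolic malic enzyme Me1. In liver, insulin acting through SREBP-1c and glucose acting through ChREBP raise the transcription of most of these genes, and Thrsp (Spot 14) is a lipogenic protein that responds to thyroid hormone and carbohydrate.

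Libraries held 16586254 to 30828427 counts, and the normalized counts used below are counts scaled to a common library size. One library stood apart. In sorafenib 48 hours replicate 2, 14.1% of the counts lay on chromosomes 15 to 19 and X, against 20.5 to 21.3% in the other libraries. None of the 8 genes lies there, but scaling on chromosomes 1 to 13 alone moved every value of that library by -0.0999 on the log2 scale. Of 11 hepatoblast markers examined, 6 or 7 reached 10 counts in every library of a group, while Hnf4a, Alb and Prox1 stayed under 10 counts in every library. Afp also stayed under 10 counts in every library of each group except DMSO at 7 days, and Epcam did so with sorafenib at 7 days. The summed level of the 11 markers was 1410 to 1510 CPM (counts scaled to a fixed library total) with DMSO and 499 to 590 CPM with sorafenib at 48 hours, and 725 to 819 CPM with DMSO and 275 to 286 CPM with sorafenib at 7 days. Dlk1 made up most of that sum (means of 32234 and 10444 normalized counts with DMSO and sorafenib at 48 hours), while Sox9 (213 and 664) and Foxa2 (211 and 722) were higher with sorafenib, at 7 days too. The 5 fibroblast markers were all detected, at 4660 to 4820 and 4800 to 5540 CPM at 48 hours and at 3530 to 3730 and 2520 to 2580 CPM at 7 days, with DMSO and sorafenib respectively. Within that sum Col1a1 was higher with sorafenib at both times (means of 41939 and 81073 normalized counts at 48 hours) and Col3a1 lower (70778 and 46413). Leukocyte, endothelial and adipocyte lists each summed to at most 8.86 CPM, and the part of these markers in the results below was not tested.

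Sorafenib lowered Acly, Acss2, Acaca and Fasn at both times and raised the malic enzyme Me1 at both. At 48 hours 6 of the 8 genes fell (Acly, Acss2, Acaca, Acacb, Fasn and Mlxipl), 1 rose (Me1) and 1 did not pass the test (Thrsp), by edgeR's quasi-likelihood test at a Benjamini-Hochberg FDR under 0.05. Over all tested genes 27.7% were called lower and 26.9% higher in that comparison. At 7 days 4 fell (Acly, Acss2, Acaca and Fasn), 2 rose (Acacb and Me1) and 2 did not pass (Mlxipl and Thrsp), against 27.9% lower and 28.9% higher among all tested genes. The median log2 fold change of the 8 genes was -0.61 at 48 hours and -0.70 at 7 days, beside -0.05 and 0.02 over all tested genes. The 4 libraries of each group did not overlap for 5 lower genes and 1 higher gene at 48 hours, where 24.9% of all tested genes were lower without overlap and 23.1% higher (48.0% in either direction). No overlap was seen at 7 days for 4 lower genes and 2 higher genes, against 28.4% and 28.5% of all tested genes (56.8% in either direction). In either direction 54.6% of all tested genes were called at 48 hours and 56.8% at 7 days. Many tested genes have few counts and are harder to call. Of 12158 genes with at least 10 counts in every sample, 4751 were lower and 4445 higher at 48 hours. At 7 days 4460 were lower and 4686 higher. These shares are larger than those over all tested genes, and that filter leaves out Mlxipl and Thrsp. Acaca, Fasn, Acly and Acss2 are shown by the study at 7 days because they passed an FDR threshold in these libraries, so their direction there is not independent evidence. In bulk RNA, fewer cells of a type and less RNA per cell cannot be told apart.

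**Figure D1:**
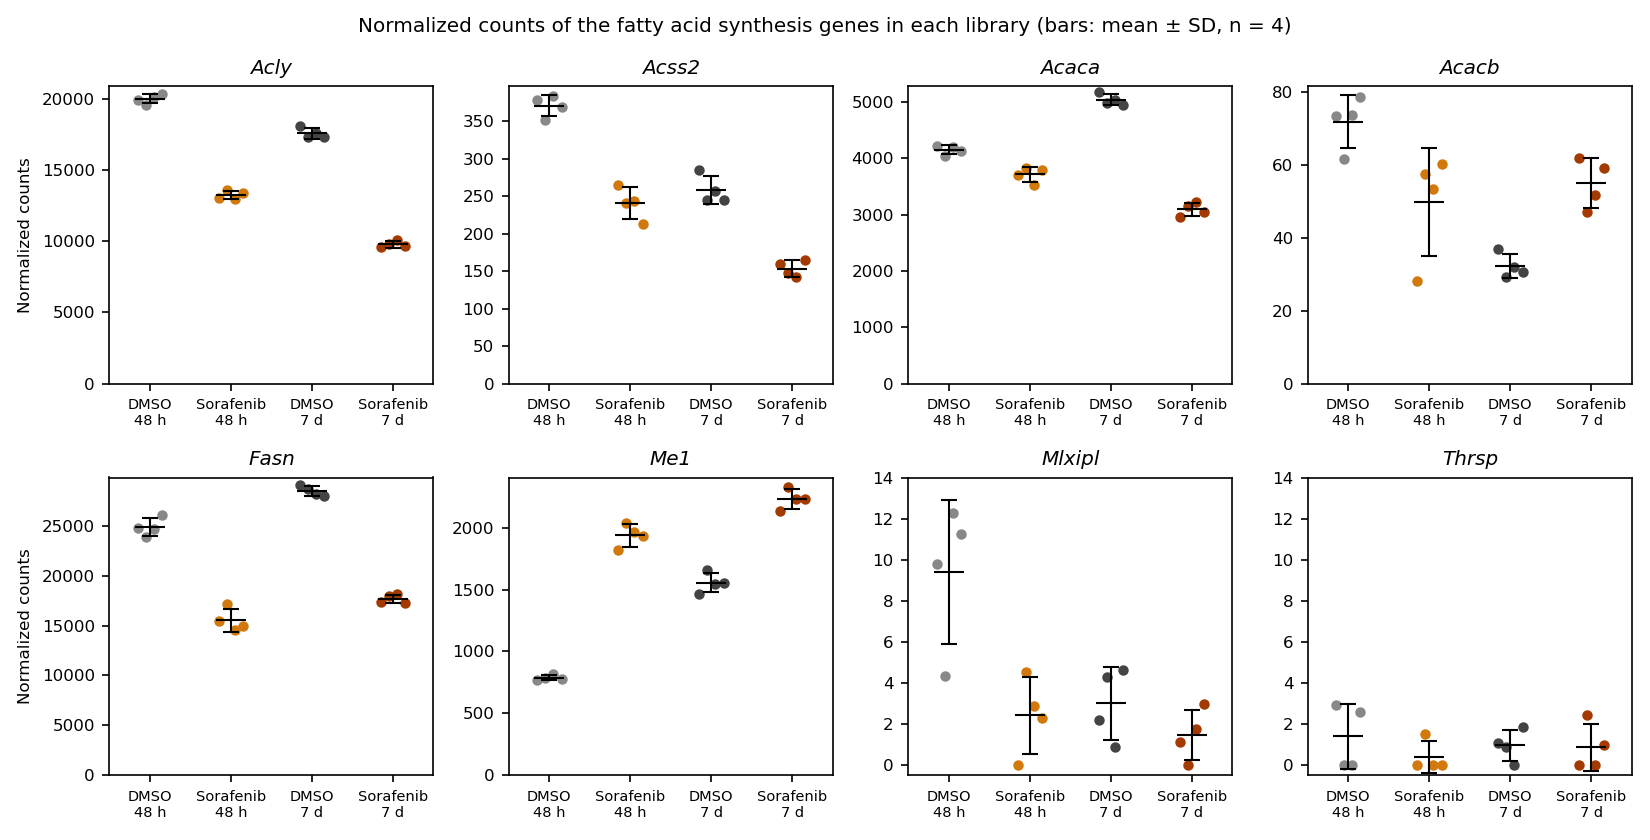
Normalized counts (y axis, linear, different range in each panel) of the 8 genes in each of the 16 libraries (points), by group (x axis), with bars for mean ± SD (n = 4). Acly, Acss2, Acaca and Fasn sit lower with sorafenib at both times, Me1 sits higher, and Acacb changes order between 48 hours and 7 days. Mlxipl and Thrsp lie near 0.

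The promoters of Fasn, Acly and Acss2, which fell at both times, and of Me1, which rose at both times, are shown to let their sequences be compared. Each runs 5′ to 3′ from 250 bases before to 50 bases after a RefSeq start site. The sequences are from RefSeq (GRCm38.p6) and were placed on GRCm39 by exact match, Fasn at chr11:120715324-120715623 (minus strand), Acly at chr11:100418777-100419076 (minus strand), Acss2 at chr2:155359713-155360012 (plus strand) and Me1 at chr9:86577918-86578217 (minus strand). Capitals mark matches on either strand to the CCAAT box, to the GC box with the letters GGGCGG, and to the core of the antioxidant response element, TGACNNNGC. The last motif was added after the values had been seen.
Fasn: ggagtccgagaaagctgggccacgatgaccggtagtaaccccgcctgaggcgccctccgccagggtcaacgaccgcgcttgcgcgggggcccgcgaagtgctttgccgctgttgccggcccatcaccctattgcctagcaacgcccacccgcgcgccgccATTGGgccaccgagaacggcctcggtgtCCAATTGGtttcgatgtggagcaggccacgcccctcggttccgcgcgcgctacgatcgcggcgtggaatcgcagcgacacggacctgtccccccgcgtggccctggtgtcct
Acly: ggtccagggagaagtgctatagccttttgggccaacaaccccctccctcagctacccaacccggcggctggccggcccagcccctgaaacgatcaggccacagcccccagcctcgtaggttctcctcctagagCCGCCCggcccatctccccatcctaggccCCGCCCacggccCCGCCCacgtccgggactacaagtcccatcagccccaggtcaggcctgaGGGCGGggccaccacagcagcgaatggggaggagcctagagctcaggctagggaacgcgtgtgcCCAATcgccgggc
Acss2: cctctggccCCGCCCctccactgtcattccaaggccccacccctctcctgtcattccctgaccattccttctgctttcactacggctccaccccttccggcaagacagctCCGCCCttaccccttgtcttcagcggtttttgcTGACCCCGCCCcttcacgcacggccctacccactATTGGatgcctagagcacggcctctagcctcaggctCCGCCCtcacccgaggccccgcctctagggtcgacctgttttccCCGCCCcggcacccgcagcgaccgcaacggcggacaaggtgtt
Me1: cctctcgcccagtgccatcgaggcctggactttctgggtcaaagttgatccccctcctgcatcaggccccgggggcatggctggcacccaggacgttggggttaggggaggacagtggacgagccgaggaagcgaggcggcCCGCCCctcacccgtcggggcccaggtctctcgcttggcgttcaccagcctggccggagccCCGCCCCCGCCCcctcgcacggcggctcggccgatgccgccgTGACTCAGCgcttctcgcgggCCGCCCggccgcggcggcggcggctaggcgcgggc

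The Fasn window held 3 CCAAT boxes, with first bases at -90, -62 and -59 from the start site, of which the last 2 overlap, and no GC box. Acly held 4 GC boxes and 1 CCAAT box downstream of the start, and Acss2 held 5 GC boxes and 1 CCAAT box. Me1 held 4 GC boxes, 2 of them adjoining, no CCAAT box, and the antioxidant core TGACTCAGC at -6. Acss2 also held that core, TGACCCCGC at -107, where it overlaps a GC box. Among 32851 promoter windows of this length 37.4% held CCAAT, 35.7% a GC box and 12.4% the antioxidant core. The sterol regulatory element TCACNCCAC (1.24% of windows) and the E box CACGTG (7.15%) had no match in these 4 windows. A pair of exact E boxes 5 bases apart matched none of the 32851 windows (0.0%), so its absence here says nothing about these genes. The RefSeq window of Acaca, which also fell at both times, held none of the 6 motifs and is not printed. Its start site lies 22316 bases downstream of the canonical GENCODE start of the gene. The lack of matches therefore does not describe the sequence around that canonical start. For the printed windows the same offset was -438 bases for Fasn (upstream), 0 for Acly, 95 for Acss2 and 137 for Me1. The Fasn window thus ends before the canonical start of Fasn. Neither its matches nor its lack of matches describe the sequence around that start. A second RefSeq window of Me1, at chr9:86569281-86569580, held 1 CCAAT box at -208 and no other match. Its start site lies 8774 bases downstream of the canonical one. Both RefSeq windows of Mlxipl were also searched, and 1 held the sterol element (TCACACCAC at -136) and the other an E box at -98. A match is a description of the letters and not of a bound site.

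Acly, ATP citrate lyase, was the second most abundant of the 8 genes per kilobase of exon and fell at both times. The gene lies on chr11:100367165-100440756 (GRCm39, minus strand). At 48 hours its normalized counts were 19972, 19605, 20185 and 20391 with DMSO and 13070.1, 13620.3, 12967 and 13418 with sorafenib. At 7 days they were 18152, 17338, 17632 and 17349 with DMSO and 9570.1, 9838, 10103 and 9646 with sorafenib. All libraries with sorafenib lay below all libraries with DMSO at each time, with wide gaps. The mean went from 20038 ± 336 to 13269 ± 304 (SD, n = 4) at 48 hours, or 66.2% of the DMSO level (log2 fold change -0.59, SE 0.0277, edgeR FDR = 2.46e-13). At 7 days it went from 17618 ± 381 to 9789 ± 237, or 55.6% (log2 fold change -0.85, SE 0.0278, edgeR FDR = 8.6e-16).

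Acss2, the cytosolic and nuclear acetyl-CoA synthetase, was far less abundant than Acly and fell to a similar share of its DMSO level. It lies on chr2:155355679-155428016 (plus strand). Normalized counts at 48 hours were 378, 351, 384 and 369 with DMSO and 265, 240.4, 244 and 214 with sorafenib. At 7 days they were 285, 245, 257 and 245 with DMSO and 159.7, 147, 142 and 165 with sorafenib. The groups did not overlap at either time, and the sorafenib libraries at 48 hours overlapped the DMSO libraries at 7 days. Sorafenib libraries held 64.9% of the DMSO level at 48 hours (log2 fold change -0.63, SE 0.0725, edgeR FDR = 3.05e-07) and 59.4% at 7 days (log2 fold change -0.75, SE 0.077, edgeR FDR = 5.01e-08). Exons of Acss2 share 1511 bases with Gss and 432 bases with Ggt7 on the opposite strand. The libraries were stranded, but the strand setting of the counting is not given in the sources used here, so reads in these bases cannot be assigned with certainty. Gss had mean normalized counts of 332 with DMSO and 306 with sorafenib at 48 hours and was not called there (log2 fold change -0.12, edgeR FDR = 0.143). At 7 days Gss fell from 428 to 289.5, in the same direction as Acss2 (log2 fold change -0.57, edgeR FDR = 1.18e-07). Ggt7 fell from 269.8 to 112 at 48 hours (log2 fold change -1.28, edgeR FDR = 9.73e-09) and from 206 to 76.8 at 7 days (log2 fold change -1.42, edgeR FDR = 3.67e-09).

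Acaca, acetyl-CoA carboxylase 1, which supplies malonyl-CoA for synthesis in the cytosol, fell slightly at 48 hours and more at 7 days. It lies on chr11:84020476-84292477 (plus strand). At 48 hours its normalized counts were 4221, 4049.7, 4208 and 4137 with DMSO and 3704, 3827, 3535 and 3796 with sorafenib. At 7 days they were 5178, 4995, 5048 and 4958 with DMSO and 2965, 3156, 3226 and 3055 with sorafenib. The gap between the groups was narrow at 48 hours and wide at 7 days, without overlap at either time. The sorafenib level was 89.4% of the DMSO level at 48 hours (log2 fold change -0.16, SE 0.0338, edgeR FDR = 0.000395) and 61.5% at 7 days (log2 fold change -0.70, SE 0.0338, edgeR FDR = 4.13e-13).

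Acacb, acetyl-CoA carboxylase 2, whose malonyl-CoA restrains fatty acid uptake by mitochondria, was a low gene that changed in opposite directions at the 2 times. It lies on chr5:114284307-114388822 (plus strand). Normalized counts at 48 hours were 73.3, 61.6, 73.5 and 78.6 with DMSO and 28.1, 57.5, 53.3 and 60.2 with sorafenib. At 7 days they were 36.8, 29.1, 31.9 and 30.6 with DMSO and 61.9, 47.1, 51.6 and 59.0 with sorafenib. At 48 hours the groups nearly touched and sorafenib replicate 1 lay far below the others, and at 7 days all sorafenib libraries lay above all DMSO libraries. The level went from 71.8 ± 7.21 to 49.8 ± 14.7 at 48 hours (log2 fold change -0.51, SE 0.164, edgeR FDR = 0.0128) and from 32.1 ± 3.31 to 54.9 ± 6.76 at 7 days (log2 fold change 0.77, SE 0.178, edgeR FDR = 0.000975). Without sorafenib replicate 1 the log2 fold change at 48 hours was -0.37 (edgeR FDR = 0.0234). The sorafenib groups at the 2 times overlapped, at log2 0.11 between them (edgeR FDR = 0.652), whereas DMSO fell to 44.7% of its 48-hour level by 7 days (log2 fold change -1.16, edgeR FDR = 8.15e-06).

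Fasn, fatty acid synthase, which makes palmitate, was the most abundant of the 8 genes per kilobase of exon and fell by about the same fold at both times. It lies on chr11:120696672-120715995 (minus strand). Its normalized counts at 48 hours were 24788, 23885, 24685 and 26117 with DMSO and 15462, 17132, 14532 and 15005 with sorafenib. At 7 days they were 29129, 28717, 28194 and 28032 with DMSO and 17371, 17952, 18139.6 and 17301 with sorafenib. Every sorafenib library lay far below every DMSO library, and replicate 2, the library with few counts on chromosomes 15 to 19 and X, was the highest of the sorafenib libraries at 48 hours. The level was 62.5% of DMSO at 48 hours (log2 fold change -0.68, SE 0.041, edgeR FDR = 1.55e-11) and 62.0% at 7 days (log2 fold change -0.69, SE 0.0409, edgeR FDR = 1.13e-11).

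Me1, the cytosolic malic enzyme, which yields NADPH as it turns malate into pyruvate, was the only enzyme of the 6 called higher at both times. It lies on chr9:86462646-86578104 (minus strand). At 48 hours normalized counts were 771, 783, 815 and 779 with DMSO and 1818, 2039.9, 1967 and 1939 with sorafenib. Those at 7 days were 1467, 1660.1, 1547 and 1554 with DMSO and 2136, 2330.05, 2232 and 2238 with sorafenib. The groups were far apart at 48 hours and closer at 7 days, where the DMSO libraries themselves had risen. Sorafenib raised the mean from 787 ± 19.03 to 1941 ± 92.2 at 48 hours, a 2.47-fold increase (log2 fold change 1.30, SE 0.0452, edgeR FDR = 2.36e-15). At 7 days it rose from 1557 ± 79.2 to 2234 ± 79.2, a 1.43-fold increase (log2 fold change 0.52, SE 0.0427, edgeR FDR = 1.77e-09). Rwdd2a shares 2146 exon bases with Me1 on the opposite strand, was much lower (mean normalized counts of 49.98 with DMSO and 27.8 with sorafenib at 48 hours) and fell there (log2 fold change -0.85, edgeR FDR = 0.000361).

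Mlxipl, the gene of the glucose-responsive factor ChREBP, was close to the limit of detection. Its raw counts at 48 hours were 10, 5, 12 and 13 with DMSO and 0, 3, 3 and 2 with sorafenib, and at 7 days 2, 5, 1 and 5 with DMSO and 1, 0, 2 and 3 with sorafenib. Most DMSO libraries at 48 hours stood above the rest, but after normalization the groups overlapped, narrowly at 48 hours and broadly at 7 days. Summed counts were 8 with sorafenib against 40 with DMSO at 48 hours, a ratio of 0.261 after scaling (exact 95% interval 0.106 to 0.565, counting error only), and 6 against 13 at 7 days, a ratio of 0.467 (0.145 to 1.32). The call at 48 hours (log2 fold change -1.89, SE 0.601, edgeR FDR = 0.0115) stood beside an exact two-sided permutation p of 0.0571 over the 8 libraries, and the 7-day difference was not called (edgeR FDR = 0.264). Thrsp had 0 to 3 raw counts in every library, 7 in all at 48 hours and 8 in all at 7 days. At this depth no difference in Thrsp was detectable (edgeR FDR = 0.274 at 48 hours), and no fold is given.

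Set against each other per kilobase of exon, the levels spanned a wide range with a steady order at the top. With DMSO at 48 hours Fasn had 2124 ± 79.0 normalized counts per kilobase, at percentile 98.5 of the genes with a known length. Acly had 1375 ± 23.0, Acaca 226 ± 4.28, Me1 129 ± 3.11, Acss2 18.7 ± 0.719 and Acacb 7.05 ± 0.708 per kilobase. Neighbours in this order did not overlap over their 4 libraries, except Mlxipl and Thrsp at the bottom. Among the enzymes Acaca and Me1 changed places by this measure, and at the bottom Mlxipl and Thrsp, which cannot be told apart at this depth. Me1 stood below Acaca with DMSO at 48 hours, overlapped it with DMSO at 7 days (254 ± 12.9 against 274 ± 5.22) and stood above it with sorafenib at 48 hours (317 ± 15.1 against 202 ± 7.13) and 7 days (365 ± 12.9 against 169 ± 6.21), on the per-kilobase scale. Divided by the longest transcript instead of all exons, Acly (2445 ± 41.0) and Fasn (2305 ± 85.7) overlapped with DMSO at 48 hours, and Acly had the higher mean in both 48-hour groups and the lower one at 7 days. The same change of length moved Acss2 to 79.6 ± 3.06 and Acaca to 437 ± 8.27 with DMSO at 48 hours, so levels between genes depend on the length used.

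The response itself differed between the times for 4 of the 8 genes. This difference is the log2 fold change at 7 days minus that at 48 hours, and 36.8% of all tested genes were called for it, 15.5% higher and 21.3% lower. It was lower for Acaca (-0.54, SE 0.0478, edgeR FDR = 2.1e-08), Acly (-0.25, SE 0.039, edgeR FDR = 2.91e-05) and Me1 (-0.78, SE 0.062, edgeR FDR = 4.28e-09), and higher for Acacb (1.28, SE 0.242, edgeR FDR = 0.000275). Fasn had a difference of -0.01 (SE 0.0576, edgeR FDR = 0.929) and Acss2 one of -0.13 (SE 0.106, edgeR FDR = 0.393), and neither passed. A change between the times was therefore called for 4 enzymes and not for Fasn or Acss2. For Acss2 the missing call does not show a steady fold change, since its SE (0.106) was large beside its difference (-0.13). Whether Acss2 and Acly (-0.25) differed from each other in this respect was not tested.

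**Figure D2:**
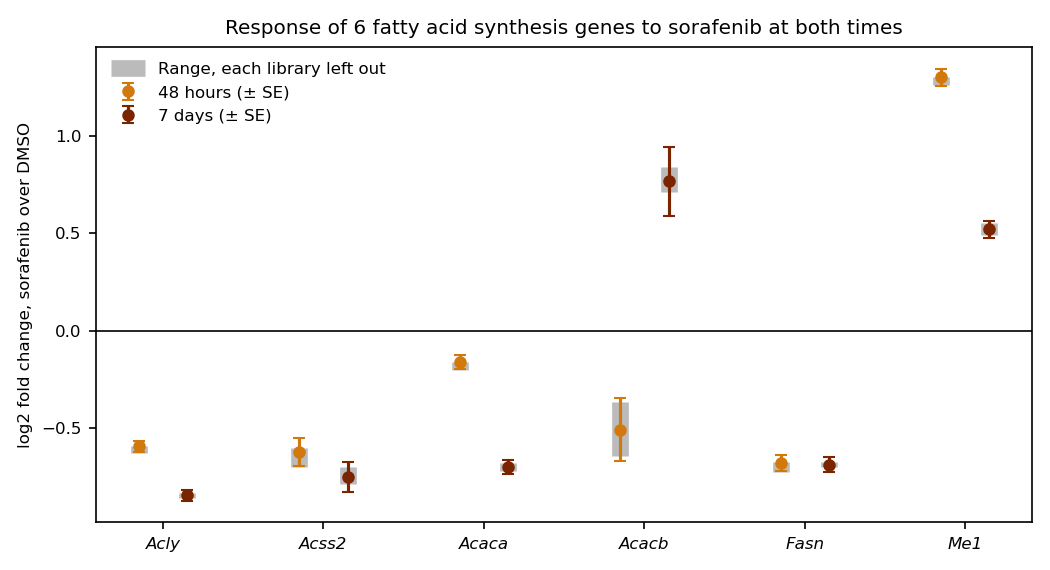
Log2 fold change of sorafenib over DMSO (y axis) for 6 of the genes (x axis) at 48 hours and 7 days, with SE bars from edgeR and grey bands for the range when each of the 16 libraries is left out in turn. Fasn sits near -0.69 at both times, Acaca moves from -0.16 to -0.70, Me1 from 1.30 to 0.52, and Acacb crosses 0.

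The vehicle was not constant over the 2 times. Between 48 hours and 7 days of DMSO 3 of the 8 genes rose (Me1, Acaca and Fasn) and 4 fell (Acacb, Mlxipl, Acss2 and Acly), beside 23.9% higher and 25.5% lower among all tested genes (49.4% in either direction). Libraries did not overlap for 3 higher and 3 lower genes, against 24.9% and 25.9% of all tested genes (50.8% in either direction). Me1 reached 198.0% of its 48-hour level (log2 fold change 0.99, SE 0.0449, edgeR FDR = 5.91e-13), Acaca 121.0% (edgeR FDR = 6.42e-07) and Fasn 115.0% (edgeR FDR = 0.000391). Acss2 fell to 69.6% (edgeR FDR = 2.43e-06) and Acly to 87.9% (edgeR FDR = 1.01e-05). Mlxipl fell by 1.60 on the log2 scale (edgeR FDR = 0.0184), a call lost without DMSO 48 hours replicate 3 (edgeR FDR = 0.0528) or 4 (0.0504), or without DMSO 7 days replicate 3 (0.0647).

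Under sorafenib the same interval gave 2 increases (Fasn and Me1) and 3 decreases (Acly, Acss2 and Acaca), against 17.5% higher and 22.3% lower over all tested genes (39.7% in either direction). All 5 did so without overlap, which 16.1% of tested genes did upwards and 19.7% downwards (35.8% in either direction). Acaca thus rose with DMSO (log2 fold change 0.28) and fell with sorafenib (log2 fold change -0.26, edgeR FDR = 3.62e-06). Fasn rose by 0.20 with DMSO and by 0.19 with sorafenib on the log2 scale. Me1 rose by 0.99 with DMSO and by 0.20 with sorafenib (edgeR FDR = 0.000689). These comparisons share libraries with those of sorafenib against DMSO.

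Ratios of 2 genes within a library do not depend on the scaling of that library, and 4 pairs were compared at both times. Acly over Acss2, the citrate against the acetate source of acetyl-CoA, had a log2 ratio of 5.76 ± 0.0442 with DMSO and 5.79 ± 0.148 with sorafenib at 48 hours (SD, n = 4), and the groups overlapped (exact two-sided permutation p = 0.657). At 7 days it was 6.10 ± 0.0732 with DMSO and lower by a log2 difference of -0.10 with sorafenib, again with overlap (exact p = 0.257). Fasn over Acaca, the successive steps, ran from 2.55 to 2.66 with DMSO and from 1.98 to 2.16 with sorafenib at 48 hours, a difference of -0.52 without overlap (exact p = 0.0286). At 7 days the same ratio was 2.50 ± 0.0178 with DMSO and 2.51 ± 0.026 with sorafenib (exact p = 0.457).

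Acaca over Acacb, the 2 carboxylases, ran from 7.14 to 7.42 with DMSO and from 5.58 to 6.07 with sorafenib at 7 days on the log2 scale, or 158-fold against 56.8-fold in counts (exact p = 0.0286). At 48 hours it ran from 5.72 to 6.04 with DMSO and from 5.98 to 7.04 with sorafenib, with overlap (exact p = 0.0571) and with sorafenib replicate 1 alone near 7. Me1 over G6pdx, malic enzyme against the first NADPH-yielding enzyme of the pentose phosphate pathway, was -1.92 ± 0.0667 with DMSO and 0.07 ± 0.363 with sorafenib at 48 hours, and -0.58 ± 0.0892 and 0.12 ± 0.0728 at 7 days (exact p = 0.0286 at each time). G6pdx lies on the X chromosome, and replicate 2 gave the highest ratio, 0.61. Without it the 48-hour difference was 1.81 instead of 1.99 and the exact p, 0.0571, was the smallest possible with 3 libraries against 4. After Benjamini-Hochberg adjustment over the 8 comparisons the 4 smallest exact p-values became 0.0572, so none passed 0.05.

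**Figure D3:**
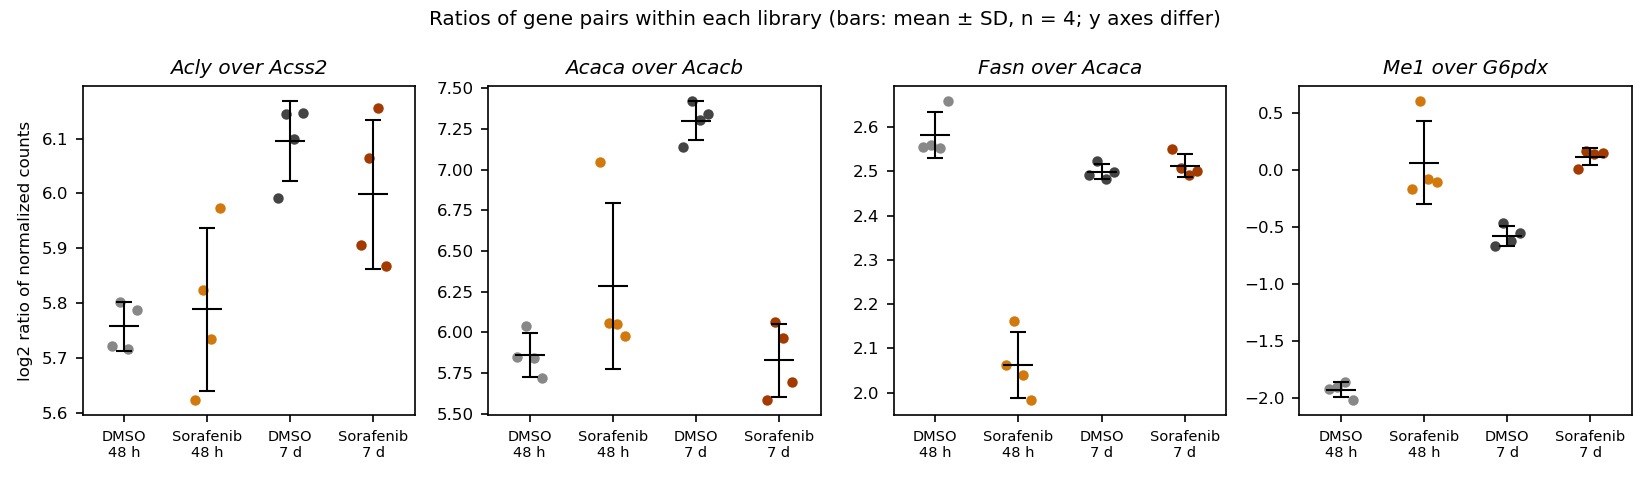
Log2 ratio of normalized counts within each library (y axis, a different range in each panel) for 4 gene pairs, by group (x axis), with mean ± SD (n = 4). Acly over Acss2 overlaps between treatments at each time, Fasn over Acaca separates only at 48 hours, and Acaca over Acacb separates only at 7 days.

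To place the enzymes among all genes, the 3 genes closest to each were found among the 10646 genes averaging 100 normalized counts or more. Acacb averaged less than that and was left out. Closeness was the root mean square difference of log2 normalized counts, centred on each gene's mean, over the 16 libraries, with 0.5 added to each count. It is a description, since the libraries share treatment groups. For Fasn these were Pelp1 (0.077), Pcnt and Cyb5d1, and for Acaca they were Ppp2r5a (0.0447), Pelo and Sephs2. For Acly they were Zfp266 (0.0436), Fzd7 and Samd1, for Acss2 Btd (0.0937), Sox12 and Trp53bp1, and for Me1 Tpm4 (0.0599), Nes and Slc20a1. Among the enzymes compared, Acly and Acss2 were closest (0.17), followed by Fasn and Acaca (0.21), while Me1 differed from the others compared by 0.737 to 1.01.

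Other genes around the pathway were grouped in 7 lists. Among all tested genes 27.7% were called lower and 26.9% higher at 48 hours, and 27.9% and 28.9% at 7 days. The counts in each list are to be read beside these shares, and no list was tested against them. The larger shares among better counted genes, given above, apply here too. The list of genes that control SREBP, the factor that drives lipogenic and sterol genes, held 7 genes. Of these 4 fell and 1 rose at 48 hours, and 6 fell and 1 rose at 7 days. The median log2 fold changes were -0.09 and -0.36. Srebf2, the sterol-regulating SREBP gene, fell from 16699 to 7365 normalized counts at 48 hours (log2 fold change -1.18, edgeR FDR = 1.32e-09) and from 14631 to 3753 at 7 days (-1.96, edgeR FDR = 6.19e-13). Insig1, which holds SREBP in the endoplasmic reticulum and is itself an SREBP target, fell from 4111 to 1692 normalized counts at 48 hours and from 3809 to 861 at 7 days (edgeR FDR = 1.03e-15 and 6.37e-19). Srebf2 lies on chromosome 15, and without sorafenib replicate 2 its 48-hour value was -1.04. Srebf1, the gene of SREBP-1c, was picked after its values were seen. It fell to 58.1% of DMSO at 48 hours and 51.3% at 7 days (edgeR FDR = 3.36e-14 and 1.3e-15). Both Srebf1 and Srebf2 are among the genes that the study chose at 7 days on these libraries, so their direction there is not independent evidence.

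Of 7 tested relatives, partners and targets of ChREBP (8 listed), 5 fell and 1 rose at 48 hours and 4 fell and 1 rose at 7 days, with medians of -0.51 and -0.47. Txnip, a glucose-induced arrestin that restrains glucose uptake, fell from 2164 to 725 normalized counts at 48 hours (log2 fold change -1.57, edgeR FDR = 4.06e-16) and from 1562 to 889 at 7 days (-0.81, edgeR FDR = 8.14e-12). Its relative Arrdc4 fell from 218 to 68.1 at 48 hours (-1.68, edgeR FDR = 6.09e-10) and from 212 to 154 at 7 days (-0.47, edgeR FDR = 0.000823). Gpd1, glycerol-3-phosphate dehydrogenase, was low, with 32 counts with sorafenib and 91 with DMSO at 48 hours (log2 fold change -1.10, edgeR FDR = 0.00328), and was not called at 7 days (edgeR FDR = 0.0866). Gpd1 lies on chromosome 15, and without sorafenib replicate 2 its 48-hour value was -1.39. In contrast to Mlxipl itself, its paralog Mlxip (MondoA), picked after its values were seen, was well detected, at 2005 normalized counts with DMSO at 48 hours. Mlxip fell with sorafenib to 86.4% of DMSO at 48 hours and 72.2% at 7 days (edgeR FDR = 8.35e-05 and 1.46e-09).

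Of the 4 LXR and RXR genes, receptors upstream of Srebf1, 3 fell at 48 hours and 2 at 7 days, and none rose. The count at 7 days was 1 in 16 of 25 alternative settings, and 1 gene was called higher in 2 of the 25. Rxra fell by 0.64 at 48 hours and by 0.59 at 7 days on the log2 scale (edgeR FDR = 1.97e-11 and 5.84e-11). Rxrb fell by 0.80 at 48 hours and by 0.21 at 7 days (edgeR FDR = 8.44e-08 and 0.0427), and its 48-hour value was -0.68 without sorafenib replicate 2. The 7-day call of Rxrb was lost in those 16 settings (edgeR FDR of 0.113 without DMSO 7 days replicate 3, the highest).

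The 10 genes that supply citrate, acetyl-CoA and NADPH included 8 that fell and 2 that rose at 48 hours, and 7 that fell and 1 that rose at 7 days. Slc25a1, the mitochondrial citrate exporter that feeds Acly, fell to 51.1% of DMSO at 48 hours and 49.5% at 7 days (edgeR FDR = 1.74e-08 and 9.33e-09). It lies on chromosome 16, and its 48-hour log2 fold change was -0.83 without sorafenib replicate 2. Idh1, a cytosolic source of NADPH, fell to 59.5% and then 31.4% (edgeR FDR = 2.31e-12 and 1.2e-17). Me3, a mitochondrial malic enzyme, rose from raw counts of 5, 8, 7 and 6 with DMSO to 42, 43, 45 and 55 with sorafenib at 48 hours (9.49-fold in normalized counts, edgeR FDR = 4.49e-10) and rose at 7 days as well (5.04-fold, edgeR FDR = 2.45e-08). It stayed far below Me1 in counts. Acss1, the mitochondrial relative of Acss2, had 3 counts in all with sorafenib and 28 with DMSO at 48 hours, a ratio of 0.14 (exact 95% interval 0.0272 to 0.453). At 7 days it had 2 counts with sorafenib and 5 with DMSO and was not called (edgeR FDR = 0.338).

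Among 12 tested partners and regulators of the carboxylases and of Fasn (13 listed), 6 rose and 2 fell at 48 hours, and 3 rose and 7 fell at 7 days. Prkab2, a subunit of AMPK, the kinase that inhibits both carboxylases, rose 3.15-fold at 48 hours and 2.72-fold at 7 days (edgeR FDR = 9.82e-16 and 3.52e-15). Prkaa2, a catalytic AMPK subunit, rose from 351 to 561 normalized counts at 48 hours (log2 fold change 0.68, edgeR FDR = 3.77e-09) and fell from 533 to 241 at 7 days (-1.15, edgeR FDR = 1.37e-12). Mid1ip1, a paralog of Thrsp that promotes carboxylase polymers, rose from 1355 to 3429 at 48 hours (1.34, edgeR FDR = 5.12e-10) and was at 2978 with DMSO and 2857 with sorafenib at 7 days (edgeR FDR = 0.631). Mid1ip1 lies on the X chromosome, and without sorafenib replicate 2 its 48-hour value was 1.48.

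Mitochondrial fatty acid synthesis, which makes the lipoate precursor, is a separate pathway with its own enzymes. Of 6 tested genes (7 listed) 2 rose and none fell at 48 hours, and 2 rose and 1 fell at 7 days, with medians of -0.02 and 0.07. These shares lie near those of all tested genes (26.9% higher at 48 hours), and the 48-hour counts moved with the settings, to 1 higher in 10 of 25 and to 1 or 2 lower in 13 of 25. Mecr, its last reductase, rose 1.32-fold and 1.45-fold (edgeR FDR = 3.16e-07 and 2.96e-09), and Ndufab1, the mitochondrial acyl carrier protein, was called only at 7 days, where it fell to 81.1% (edgeR FDR = 3.52e-05). Ndufab1 was also called at 48 hours in 12 of 25 settings, among them without sorafenib replicate 2 (log2 fold change -0.15, edgeR FDR = 0.00644).

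The enzymes that desaturate and elongate fatty acids, both those made from palmitate and polyunsaturated and very long chains, showed the lowest medians of the 7 lists, -0.72 at 48 hours and -1.29 at 7 days, with 6 genes lower and 2 higher of 8 at 48 hours and 7 lower and 1 higher at 7 days. Scd1 and Scd2, the Δ9 desaturases, are among the genes that the study chose on these libraries, and as close paralogs may share reads. Scd2 changed by -0.92 at 48 hours and -1.57 at 7 days on the log2 scale (edgeR FDR = 1.53e-07 and 5.45e-11), and Scd1 fell to 61.9% and 37.4% of DMSO (edgeR FDR = 1.18e-05 and 5.64e-10). Elovl6, which extends palmitate to stearate, fell to 46.4% and 22.7% (edgeR FDR = 1.05e-14 and 6.58e-19). Fads2, the Δ6 desaturase of polyunsaturated fatty acids, fell to 36.5% and 18.7% (edgeR FDR = 1.26e-10 and 6.3e-14), and Fads1 to 59.3% and 44.4% (edgeR FDR = 1.38e-06 and 2.48e-09). Elovl7 went the other way from a low level, 25.7 to 152 normalized counts at 48 hours and 29.5 to 209.9 at 7 days (edgeR FDR = 8.1e-12 and 3.38e-13). Scd1, Scd2, Fads1 and Fads2 lie on chromosome 19, and without sorafenib replicate 2 their 48-hour log2 fold changes were -0.54, -0.77, -0.61 and -1.31, all still called.

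**Figure D4:**
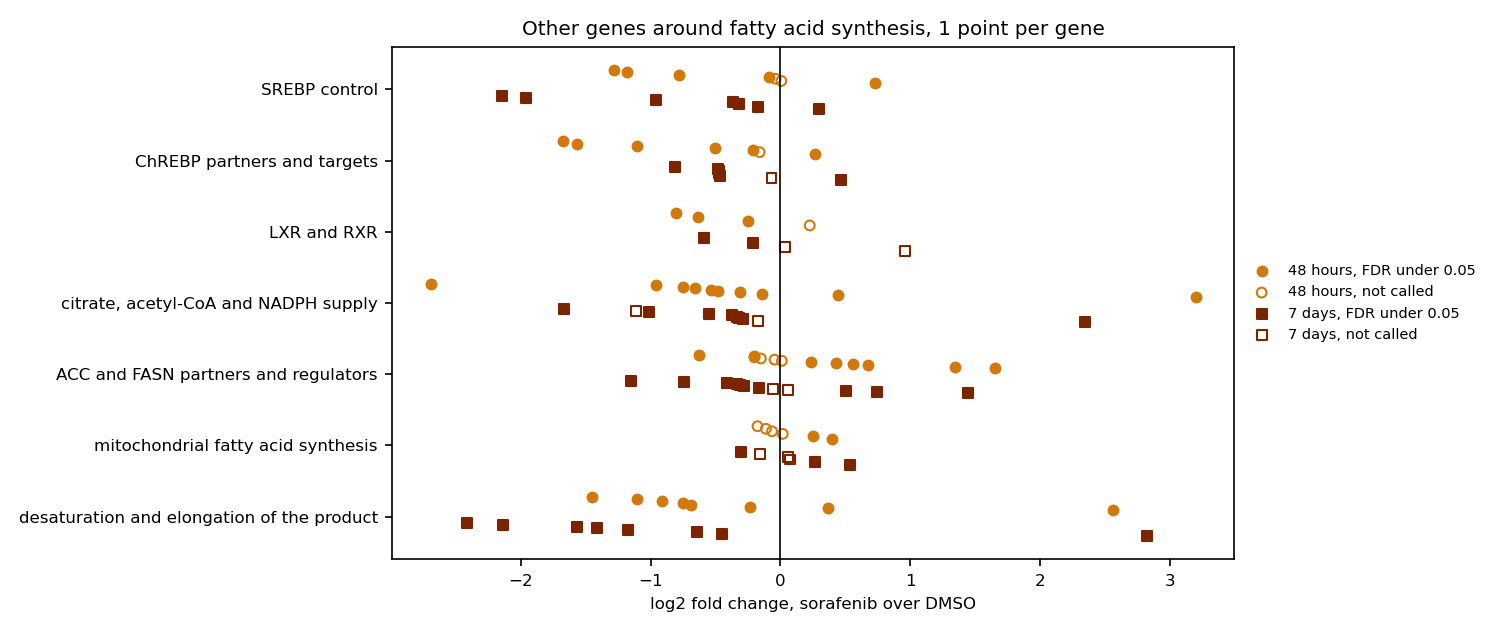
Log2 fold change of sorafenib over DMSO (x axis) for every tested gene of the 7 lists (rows), with circles for 48 hours, squares for 7 days and filled symbols for an edgeR FDR under 0.05. The desaturation and elongation row reaches furthest left at 7 days apart from Elovl7 at 2.83, and the row of regulators holds more filled circles right of 0 than left.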

How the data were processed

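Total RNA of 16 samples was made into libraries with a stranded Illumina mRNA kit. The authors aligned the reads to GRCm39 with STAR 2.7.1a, and featureCounts 2.0.6 is listed in the submitters' processing notes. The deposited values are raw counts per gene, and the strand setting and gene annotation are not given in the sources used here. Genes with fewer than 10 counts in total were removed (20396), as in the study's methods.

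The test was edgeR 4.0.16's quasi-likelihood test with TMM factors (R 4.3.3), fitted over all 16 libraries as 4 groups without a block, with p-values adjusted over 20444 genes (Benjamini-Hochberg, threshold 0.05). The study used DESeq2 1.40.2. Here DESeq2 1.42.0, limma 3.58.1 (voom with quality weights), other scalings and filters, a replicate block and the removal of each library were tried as alternatives. Normalized counts are counts divided by the total times the TMM factor, times the geometric mean of that product. Exact permutation tests (SciPy 1.17.1) were two-sided, with a smallest p of 0.0286 for 4 libraries against 4. Levels at or under 3 counts were taken as the floor. Intervals cover counting error only. Replicates differed by more than sampling noise in all 24 pairs (chi-square per gene of at least 1.58). Positions, exon lengths and overlaps are from GENCODE M39. The steps were tested on simulated data.

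The 8 genes and the 7 lists (57 genes) were chosen with earlier results of these data known. From each list the text names every gene called and changed by 1 or more log2 units at either time, otherwise the 2 called genes with the largest change at 7 days. Other named genes were chosen after their values were seen. One gene of the marker list is not reported here and was left out of the marker sums.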

Additional observations from a re-analysis of the deposited data

Results flagged for a closer look

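Among the genes named by the rule, responses that differed between 7 days and 48 hours were picked out by the interaction of treatment and time (edgeR FDR under 0.05, log2 fold change at 7 days minus that at 48 hours). Other genes of the lists were called too and are not given here. Among the 8 genes these were Acaca (-0.54), Acacb (1.28), Acly (-0.253) and Me1 (-0.782). Among the regulators they were Srebf2 (-0.783), Insig1 (-0.861), Txnip (0.759), Arrdc4 (1.21), Rxrb (0.593), Mid1ip1 (-1.4), Prkaa2 (-1.83) and Prkab2 (-0.21). Idh1 (-0.922) was picked out among the suppliers and Ndufab1 (-0.189) in mitochondrial fatty acid synthesis. Among the desaturases and elongases they were Scd1 (-0.73), Scd2 (-0.652), Elovl6 (-1.03), Fads1 (-0.42) and Fads2 (-0.965). The call was lost for Ndufab1 in 18 of 24 alternative settings (FDR up to 0.389), for Prkab2 in 9 (up to 0.267) and for Fads1 in 7 (up to 0.0846).

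Single libraries far from the other 3 of their group were found in 14 of 120 groups tested, and chance flags about 1 in 20 groups. At 48 hours with sorafenib the lowest library was at 5116 normalized counts for Srebf2, 2374 for Mid1ip1, 2752 for Scd1, 26740 for Scd2, 4438 for Fads1 and 3918 for Fads2, genes on chromosomes 15, 19 and X. The highest sorafenib library for Thrsp at 48 hours was at 1.512 normalized counts, from 1 read. With DMSO at 48 hours the lowest library was at 205.7 for Arrdc4, 2388 for Rxrb and 1226 for Mid1ip1. With DMSO at 7 days the highest library was at 1595 for Txnip and the lowest at 23.31 for Gpd1. With sorafenib at 7 days the highest was at 27.61 for Gpd1 and the lowest at 2940 for Fads2.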

How the results depend on the processing

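Over 963 recomputed values of the 8 genes in 5 comparisons, 960 kept their side of the threshold and none of the called ones reversed. The 3 exceptions were the fall of Mlxipl with DMSO between 48 hours and 7 days, at an edgeR FDR of 0.0528, 0.0504 and 0.0647 without DMSO 48 hours replicate 3, replicate 4 and DMSO 7 days replicate 3. The filter of 10 counts in every sample removed Mlxipl and Thrsp. The count of genes lower at 48 hours then was 5. Scaling by total counts alone turned the split of all genes for the difference of responses from 3161 higher and 4353 lower to 4121 higher and 3292 lower, and the difference for Acly was then -0.16. Leaving out 1 library, the within-library differences ran no closer to 0 than -1.39 for Acaca over Acacb at 7 days, -0.494 for Fasn over Acaca and 1.81 for Me1 over G6pdx at 48 hours, each at an exact p of 0.0571, the smallest possible with 3 libraries against 4. Deviations of same-numbered libraries from their group means had a mean r of -0.00897 at 48 hours and 0.0679 at 7 days. For differently numbered libraries it was 0.00294 and -0.022. With a replicate block the calls over all genes were 5270 higher and 5374 lower at 48 hours and 5566 and 5461 at 7 days, and no call of the 8 genes changed. Depth limits Mlxipl, Thrsp and Acss1, where a few reads decide the values.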

Other observations

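Some list genes outside the naming rule, chosen after their values were seen, moved in opposite directions at the 2 times. Cs, citrate synthase, which makes the citrate used by Acly, rose from 8573 to 11675 normalized counts at 48 hours (log2 fold change 0.45, edgeR FDR = 4.1e-11) and fell from 12778 to 10488.0 at 7 days (-0.28, edgeR FDR = 3.41e-08). Elovl1, an elongase of very long chains, rose to 129.0% of DMSO at 48 hours and fell to 73.1% at 7 days (edgeR FDR = 2.73e-07 and 1.04e-08). Khk, ketohexokinase, the entry of fructose, fell to 70.4% at 48 hours and was at 139.0% at 7 days (edgeR FDR = 5e-06 and 3.66e-05), while its DMSO level fell from 514 to 214. The interaction of treatment and time was called for all 3 (edgeR FDR = 1.91e-11 for Cs, 1.13e-09 for Elovl1 and 4.16e-07 for Khk). Insig2, which also retains SREBP, rose 1.66-fold at 48 hours and 1.23-fold at 7 days (edgeR FDR = 8.8e-11 and 2.28e-05), in the opposite direction to Insig1. Mlycd, which degrades malonyl-CoA, rose 1.35-fold at 48 hours, with overlapping groups, and 1.68-fold at 7 days (edgeR FDR = 0.0106 and 8.32e-05).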
